A study of Mus musculus with 10 samples.

Results

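The genes described here are 38 mouse genes of protein folding in the endoplasmic reticulum (ER), of secretory protein entry and of the unfolded protein response, taken as a named list and matched by symbol to the Ensembl gene identifiers of the count table. All 38 were found among the 52636 genes of the table, and 37 were abundant enough to test. The data are bulk RNA sequencing of nonclassical monocytes, the patrolling monocyte subset, sorted from bone marrow. The groups are 5 libraries from LAIR1+/+ animals (WT) and 5 from LAIR1-/- animals (LAIR1KO), which lack a collagen-binding inhibitory receptor of leukocytes. No treatment was given, and the labels do not state age, strain, the number of animals or how the allele was made.

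Proteins that enter the secretory pathway are threaded through the Sec61 channel into the ER, where the HSP70-type chaperone BiP (Hspa5), the HSP90-type chaperone GRP94 (Hsp90b1), the lectin chaperones calreticulin and calnexin and the protein disulfide isomerases fold them. When unfolded protein builds up, 3 sensors respond: IRE1 (Ern1) splices the mRNA of Xbp1, ATF6 is cut to release a transcription factor, and PERK (Eif2ak3) phosphorylates eIF2, which slows translation and raises ATF4. In monocytes and macrophages this machinery serves secreted proteins, surface receptors and the loading of MHC class I, in which calreticulin and Pdia3 take part. Splicing of Xbp1, cleavage of ATF6 and phosphorylation of PERK are not read by gene counts, so only transcript levels are described.

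In LAIR1KO, 4 of the 37 tested members rose, 1 fell and 32 did not pass (edgeR, adjusted p under 0.05). The 4 that rose were Calr, which encodes calreticulin, and the disulfide isomerase genes Pdia4, Pdia5 and Pdia6, and the gene that fell was Trib3, a pseudokinase gene induced by ATF4. The members' share of calls was 13.5%, against 6.79% of all 13469 genes tested, with 10.8% against 5.11% for higher calls and 2.7% against 1.68% for lower calls. The median log2 fold change of the members was 0.01 and that of all tested genes was 0.0, and 20 of the 37 members had a fold change above 0, against 49.7% of all genes. Over all genes 688 were higher and 226 lower, so 75.3% of the calls were higher. Scaling by library totals put the all-gene median at 0.13 and this share at 90.1%, and it called 9 members higher and 1 lower. Correcting for GC content and exon length put the share at 62.5% and called 2 members higher (Calr and Pdia5) and 2 lower (Trib3 and Ppp1r15a). Among fits with 1 library left out, 1 member was higher when LAIR1KO replicate 4 was omitted and 2 when WT replicate 1, 2 or 5 was, while no member was lower (0 of 37, edgeR) when WT replicate 2 or 3 or LAIR1KO replicate 1, 4 or 5 was. With LAIR1KO replicates 4 and 5 left out together 1 member was higher (Calr) and 1 lower (Atf6, not Trib3), and with WT replicates 1 and 4 left out together 0 were higher and 0 lower (edgeR).

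The promoters of these genes are known for the ER stress response element (ERSE), bound by ATF6 and XBP1 together with the factor NF-Y. It reads CCAAT, then 9 bases of any kind, then CCACG. RefSeq promoter windows on GRCm38.p6, the 250 bases before the annotated start, were at hand for 32 members and searched on both strands. An exact ERSE stood in 9 of these 32 windows, and in 0.113% of all 32851 windows of the same length. The sites are shown because 2 of the 4 members that rose, Calr and Pdia6, hold one. Each is given 5′ to 3′ on the strand on which the motif reads, with the fixed letters of the element in capitals and 5 flanking bases on each side.
Calr (chr8:84847070-84847098, plus strand, against the gene): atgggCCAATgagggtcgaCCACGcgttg
Pdia6 (chr12:17266486-17266514, plus strand): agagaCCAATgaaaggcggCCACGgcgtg
Hspa5 (chr2:34772020-34772048, plus strand): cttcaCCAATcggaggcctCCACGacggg
Hsp90b1, far site (chr10:86705633-86705661, minus strand): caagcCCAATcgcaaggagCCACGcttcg
Hsp90b1, near site (chr10:86705528-86705556, plus strand, against the gene): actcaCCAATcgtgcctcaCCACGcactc
Canx (chr11:50325795-50325823, minus strand): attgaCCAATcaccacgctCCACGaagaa
Dnajc3 (chr14:118937822-118937850, plus strand): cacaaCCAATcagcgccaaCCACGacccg
Creld2 (chr15:88819515-88819543, minus strand, against the gene): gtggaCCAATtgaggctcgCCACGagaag
Syvn1 (chr19:6046527-6046555, plus strand): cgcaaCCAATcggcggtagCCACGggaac
Derl3 (chr10:75893237-75893265, minus strand, against the gene): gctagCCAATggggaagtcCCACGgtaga

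The sites lay between 212 and 26 bases before the RefSeq start, the far site of Hsp90b1 being the most distant and that of Syvn1 the closest. The GENCODE M21 annotation begins Hspa5 earlier, at base 34771970, so the Hspa5 site lies inside that gene model. Of the 9 genes that hold an exact ERSE, Calr and Pdia6 passed in LAIR1KO. Hspa5, Hsp90b1, Canx, Dnajc3, Creld2, Syvn1 and Derl3 hold the same letters and did not pass, with log2 fold changes of 0.30, 0.17, 0.19, -0.11, 0.08, 0.03 and 1.63. The exact element was not in the windows of Pdia4, Pdia5 or Trib3. On the minus strand, the windows of Pdia4 and Trib3 end at bases 47813513 and 152344061. GENCODE M21 begins these genes further on, at bases 47813430 and 152344032. The bases between were not searched for this element or for those below. A match to the letters is a description of the window and not a measured binding site.

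Related elements were searched in the same way. The half-site CCACG, which is part of the ERSE, stood in 23 of the 32 windows and in 28.3% of all windows. ERSE-II, which reads ATTGG, 1 base of any kind and CCACG, and so also contains the half-site, was found in the window of Herpud1 and in 0.0304% of all windows, and the core of the XBP1-type element, TGACGTGG, in 0 of 32 and in 0.563%. The ATF4-type core TGATGNAAN was found in 3 windows, those of Asns, Chac1 and Herpud1, and in 3.44% of all windows. The ERSE-II site is shown as the variant of the element above. The ATF4-type cores are shown because the lower member, Trib3, is a target of ATF4 and its window held none. GENCODE M21 begins Asns, on the minus strand, at base 7693254, so the Asns core lies inside that gene model.
Herpud1, ERSE-II (chr8:94386372-94386392, plus strand): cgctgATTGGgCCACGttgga
Herpud1, ATF4-type core (chr8:94386311-94386329, minus strand, against the gene): cgggcTGATGcAAcccgcc
Chac1, ATF4-type core (chr2:119351043-119351061, minus strand, against the gene): aggagTGATGcAAcggcag
Asns, ATF4-type core (chr6:7693219-7693237, minus strand): ccacaTGATGaAActtccc

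The windows of the 2 called genes with an ERSE follow, on the gene's strand, cut where GENCODE M21 begins the gene. This leaves out the last 3 of the 250 searched bases for Calr and the last 44 for Pdia6, where a further half-site lies 12 to 8 bases before the RefSeq start. Capitals mark the fixed letters of the ERSE, which reads in reverse in Calr, and every other CCACG or its complement CGTGG in the stretch shown.
Calr (chr8:84846935-84847181, minus strand): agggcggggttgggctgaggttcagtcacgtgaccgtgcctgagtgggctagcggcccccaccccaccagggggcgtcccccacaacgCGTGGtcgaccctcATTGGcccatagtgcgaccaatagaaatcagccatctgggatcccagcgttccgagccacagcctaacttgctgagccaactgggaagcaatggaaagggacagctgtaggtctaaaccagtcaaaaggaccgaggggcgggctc
Pdia6 (chr12:17266339-17266544, plus strand): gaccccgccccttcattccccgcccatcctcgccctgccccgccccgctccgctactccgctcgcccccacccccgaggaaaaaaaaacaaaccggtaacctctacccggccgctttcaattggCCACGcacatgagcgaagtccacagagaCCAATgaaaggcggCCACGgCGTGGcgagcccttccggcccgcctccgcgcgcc

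Total counts ran from 12106209 to 15356924 per library, and Lair1 held 4230 to 5579 counts in each WT library against 0 to 10 in each LAIR1KO library (374 ± 27.7 and 0.226 ± 0.276 CPM, SD, n = 5; two-sided exact permutation p = 0.00794, the smallest that 5 against 5 can give). CPM are the usual library-size-scaled counts, here on TMM-scaled sizes. The nonclassical monocyte markers were present in every library, with a summed level of 8191 to 10816 CPM in WT and 6799 to 8691 in LAIR1KO. All 10 had a fold change below 0 in LAIR1KO, with a median log2 fold change of -0.26, and 0 of 10 passed the threshold. Among markers of other cells that the gate could hold, 11 of 11 myeloid progenitor genes and 10 of 10 mitosis genes rose in LAIR1KO. The progenitor sum was 551 to 1446 CPM in WT and 3252 to 6924 in LAIR1KO, highest in LAIR1KO replicates 4 and 5, and the mitosis sum was 207 to 300.1 and 439 to 868. Resident macrophage genes had 8 of 10 lower, with sums of 1749 to 2258 and 943 to 1226. Of all tested genes 5.11% were higher and 1.68% lower. The marker lists were chosen with earlier results of these data known, so these counts describe the libraries and are not a test. In bulk RNA, more cells of a type and more RNA per cell cannot be told apart, and the part of these markers in the results below was not tested.

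**Figure D1:**
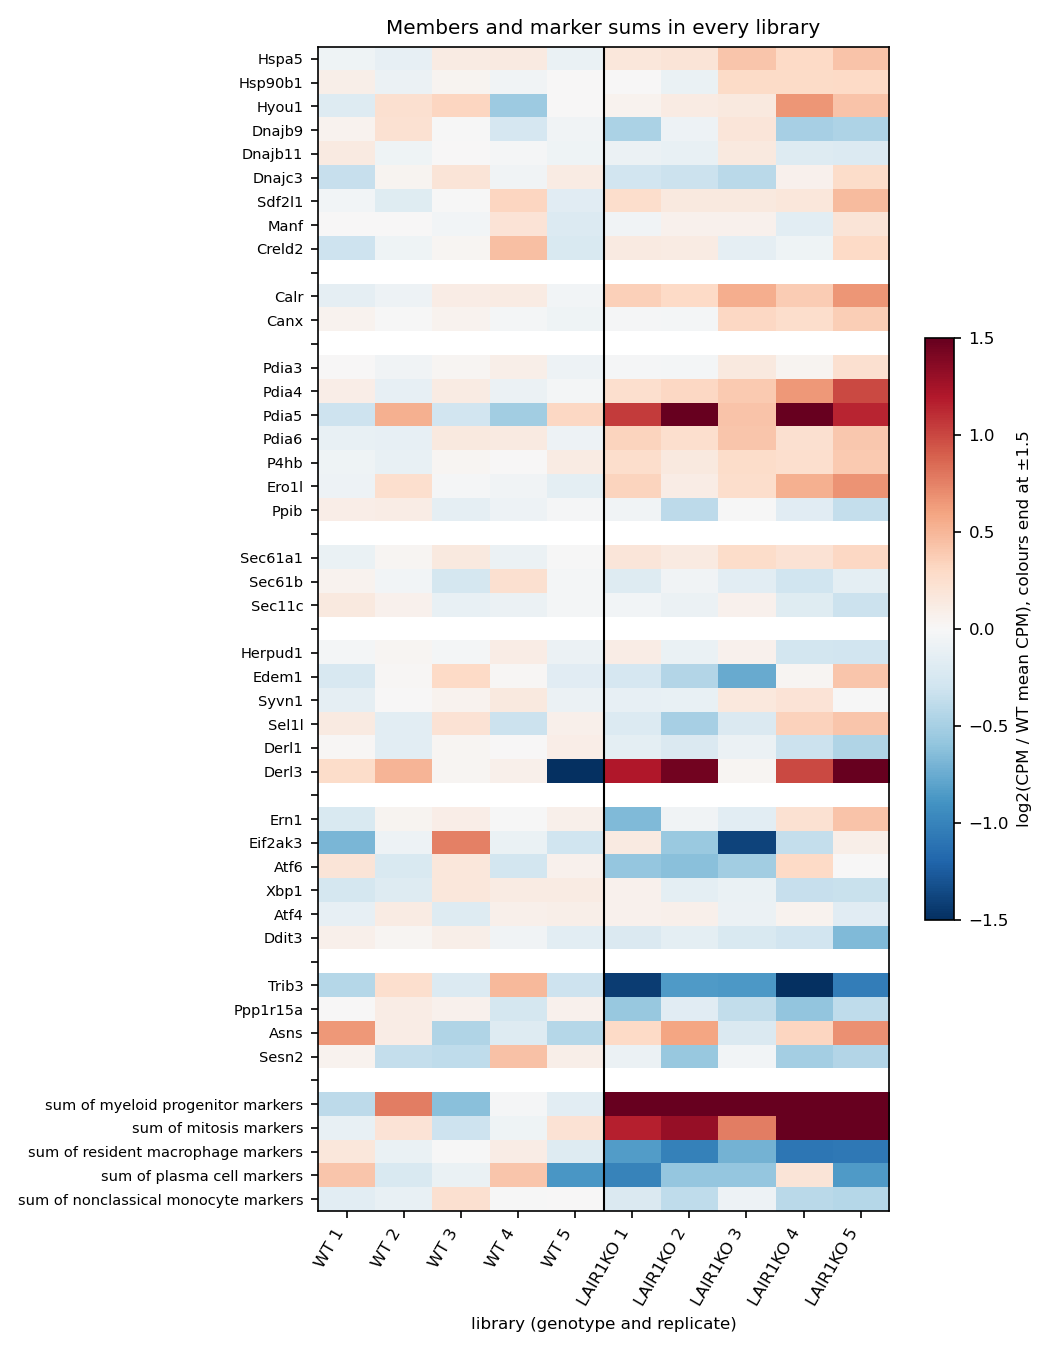
Heat map of the 37 tested members (rows, by role) and of summed marker lists (bottom rows) in the 10 libraries (columns). Colour is the log2 ratio of a library's CPM to the WT mean, ending at 1.5 in either direction, with 0.25 CPM added for Derl3 because WT replicate 5 held none. Calr, Pdia4, Pdia5 and Pdia6 are above the WT mean in all 5 LAIR1KO libraries and Trib3 below it. The progenitor and mitosis sums are also above the WT mean in all 5 and are highest in LAIR1KO replicates 4 and 5.

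Abundance differed widely within the list. Per kilobase of exon, WT levels ran from 0.290 CPM for Derl3 to 225 for Hspa5 among the tested members. The exon length is that of all annotated exons of a gene merged, which can exceed the length of its main mRNA. Levels and ranks on this scale are therefore approximate. Hspa5 ranked 178 among the 13469 tested genes, followed within the list by Pdia3 (202 CPM per kilobase, rank 198), Calr (184, rank 219), P4hb (174, rank 228) and Xbp1 (160, rank 247). Neighbours in this order lay close together, so that on the same scale in LAIR1KO Calr stood at 252 and Pdia3 at 213, the reverse of their order in WT. The sensors were far lower, with Atf6 at 16.0, Ern1 at 11.3 and Eif2ak3 at 8.76 CPM per kilobase in WT. Summed over all 38 members, the level was 6981 to 7788 CPM in WT (median 7212) and 7360 to 8787 in LAIR1KO (median 8095), and the groups overlapped.

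**Figure D2:**
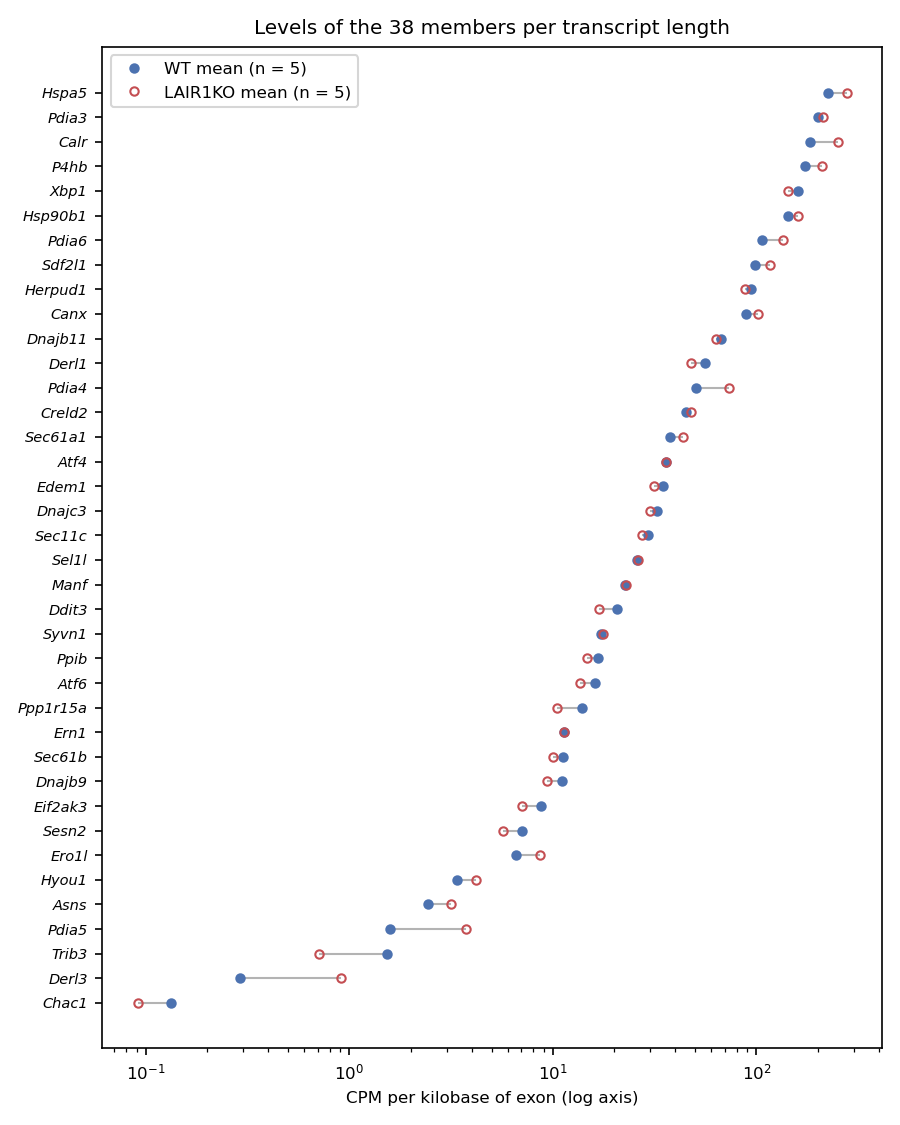
Mean level of each of the 38 members in WT (filled) and LAIR1KO (open) as CPM per kilobase of exon on a log axis, ordered by WT. The most abundant members are Hspa5, Pdia3, Calr and P4hb, and the points of the 2 genotypes lie close together except for Pdia5, Trib3 and Derl3 among the rare ones.

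Calreticulin showed the firmest difference among the members. Calr (ENSMUSG00000003814) is a lectin chaperone that holds newly glycosylated proteins in the ER and binds calcium. It stood at 482, 503, 573, 577 and 514 CPM in WT replicates 1 to 5 and at 677, 653, 770.5, 689 and 839 CPM in LAIR1KO replicates 1 to 5. Every LAIR1KO library lay above every WT library. The means were 530.2 ± 42.7 and 726 ± 77.2 CPM (SD, n = 5), a log2 fold change of 0.45 ± 0.10 (SE; 95% confidence interval 0.25 to 0.66; edgeR adjusted p = 0.0126). Calr passed whichever single library was left out (10 fits) and without LAIR1KO replicates 4 and 5 together (0.40, adjusted p = 0.0478), and it did not pass without WT replicates 1 and 4 together (0.45, adjusted p = 0.0739). A pseudogene, Calr-ps, shares sequence with Calr, and how reads matching both were counted is not stated. Its membrane-bound relative Canx (calnexin) had a log2 fold change of 0.19 ± 0.10 (adjusted p = 0.275). Canx lay at 398 to 433 CPM in WT, and in LAIR1KO replicates 1 and 2 were inside that range while replicates 3 to 5 were above it.

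Oxidoreductases and isomerases, which form disulfide bonds or, in the case of Ppib, isomerise prolines, had 3 of 7 members higher, none lower, and a median log2 fold change of 0.33. Of all tested genes 5.11% were higher. The count of 3 was not stable: Pdia4, Pdia5 and Pdia6 lost their calls in 6, 1 and 8 of the 10 single-library fits. Pdia4 (ERp72), a disulfide isomerase that works with BiP, stood at 129, 111, 131, 113 and 118 CPM in WT replicates 1 to 5. In LAIR1KO replicates 1 to 5 it stood at 143, 149, 158, 189.7 and 239 CPM, with replicates 4 and 5 highest and no overlap with WT. Its log2 fold change was 0.54 ± 0.14 (SE; adjusted p = 0.0299), and 0.31 (adjusted p = 0.104) without LAIR1KO replicates 4 and 5. It also lost its call without any single WT library or without LAIR1KO replicate 4 (adjusted p = 0.0509 to 0.0786), without WT replicates 1 and 4 together (0.126) and with the correction for GC content and length (0.0561).

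Pdia5, a rarer relative, had the largest fold change of the members that passed. Its levels were 3.51, 6.31, 3.57, 3.04 and 5.42 CPM in WT and 9.01, 12.6, 5.90, 14.6 and 9.64 CPM in LAIR1KO, and LAIR1KO replicate 3 lay below WT replicate 2. The log2 fold change was 1.24 ± 0.28 (SE; 95% confidence interval 0.64 to 1.84; adjusted p = 0.0178). Its call ended when LAIR1KO replicate 4 was left out (1.09, adjusted p = 0.0543), and also without LAIR1KO replicates 4 and 5 (1.07, adjusted p = 0.102) or without WT replicates 1 and 4 (1.02, adjusted p = 0.122).

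Pdia6 (P5), an abundant isomerase that binds BiP, differed less but evenly across libraries. It lay at 371, 368, 444, 439 and 381 CPM in WT and at 503, 479, 537, 472 and 529.9 CPM in LAIR1KO, so that the groups did not overlap. The log2 fold change of 0.33 ± 0.09 passed narrowly (adjusted p = 0.0392). Leaving out any 1 library other than WT replicate 3 or 4 ended the call (8 of 10 fits, adjusted p = 0.0541 to 0.105). So did leaving out either pair of libraries (0.0891 and 0.130), upper-quartile scaling (0.0529), using no filter (0.106) and the correction for GC content and length (0.24, adjusted p = 0.147).

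The other 4 genes of this role did not pass. P4hb, the archetypal disulfide isomerase, lay at 460.1 to 543 CPM in WT and 550.5 to 656 in LAIR1KO, with no overlap, at a log2 fold change of 0.27 ± 0.08 (adjusted p = 0.0688). Ero1l, the oxidase that recharges these isomerases, had 0.40 ± 0.13 (adjusted p = 0.0864). Pdia3 (ERp57), the partner of calreticulin and calnexin, stood at 634, 612, 644, 673 and 602 CPM in WT and 625, 619.6, 699.7, 652 and 746 CPM in LAIR1KO, and the groups overlapped (0.08 ± 0.08; 95% confidence interval -0.10 to 0.26; adjusted p = 0.631). Ppib, the ER cyclophilin, had -0.19 ± 0.11 (adjusted p = 0.349), and 825 bases of its exons are overlapped on the other strand by Snx22, whose mean count was 99.0 against 707 for Ppib.

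**Figure D3:**
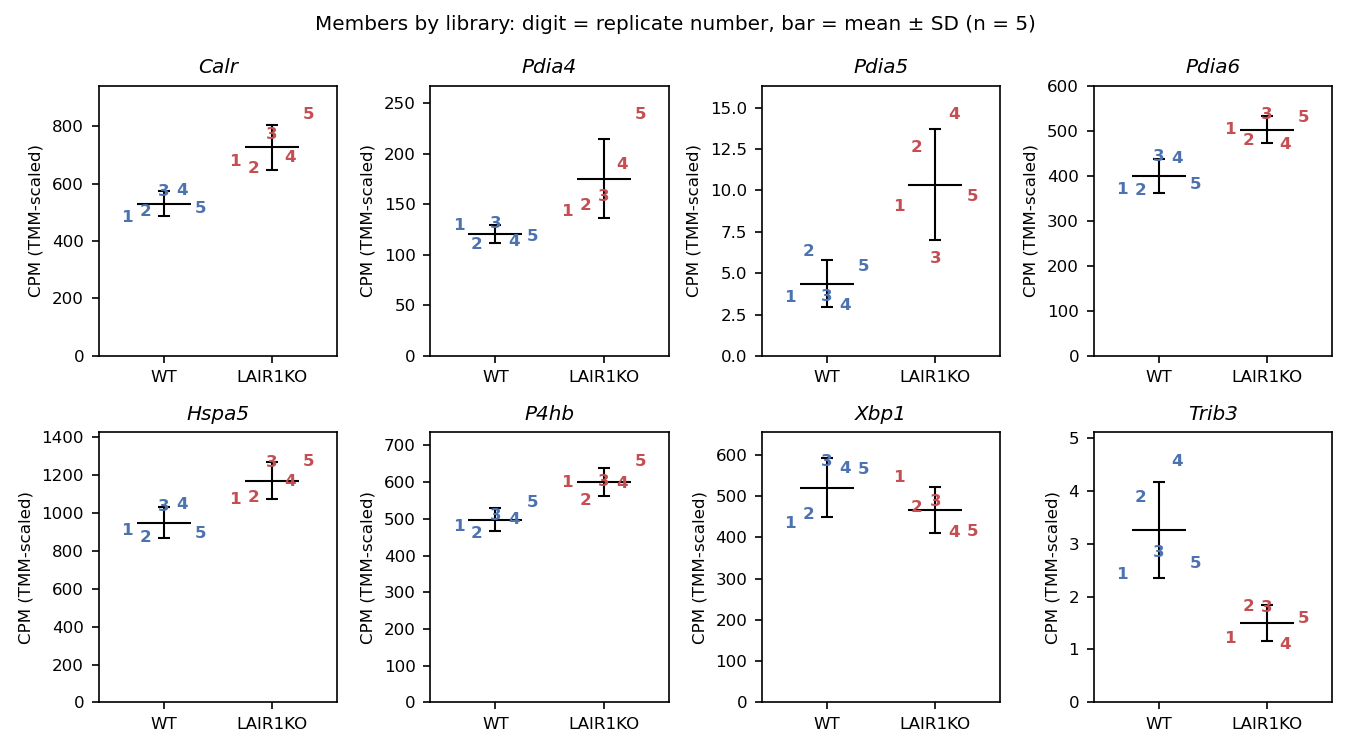
CPM of 8 members in each library, with each digit giving the replicate number and the bar giving the mean ± SD (n = 5), on axes that start at 0. In Calr, Pdia4, Pdia6, Hspa5 and P4hb all LAIR1KO libraries lie above all WT libraries, in Trib3 all lie below, and in Pdia5 and Xbp1 the groups overlap.

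Of the 9 lumenal chaperones and cofactors, none passed (edgeR; lowest adjusted p = 0.0674, median log2 fold change 0.08). Hspa5 (ENSMUSG00000026864), the master chaperone of the ER, came closest. Its levels were 908, 871, 1038, 1043 and 889.7 CPM in WT and 1072, 1084, 1266, 1166 and 1273 CPM in LAIR1KO, without overlap (950.03 ± 83.6 and 1172 ± 95.9 CPM, SD, n = 5). The log2 fold change was 0.30 ± 0.09 (95% confidence interval 0.11 to 0.50; adjusted p = 0.0674), and 0.20 (adjusted p = 0.240) with the correction for GC content and length. It passed with DESeq2 (adjusted p = 0.0249) and with scaling by library totals (0.00655). Hsp90b1 had 0.17 ± 0.10 (adjusted p = 0.351), with LAIR1KO replicates 1 and 2 at 577 and 540 CPM and replicates 3 to 5 at 704 to 708, against 543 to 613 in WT.

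Among the remaining lumenal genes the log2 fold changes ran from -0.24 to 0.30. Hyou1, an HSP170-type nucleotide exchange factor, had 0.30 ± 0.18 (adjusted p = 0.357), and Sdf2l1, a partner of the ER J-proteins, 0.24 ± 0.11 (adjusted p = 0.232). Of the J-domain co-chaperones of BiP on the list, Dnajb9 had -0.24 ± 0.16, Dnajc3 -0.11 ± 0.14 and Dnajb11 -0.08 ± 0.09 (adjusted p = 0.419, 0.712 and 0.655). Creld2 and the secreted survival factor gene Manf had 0.08 ± 0.14 and 0.03 ± 0.10.

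None of the 3 genes of translocation and signal peptide removal passed (edgeR; lowest adjusted p = 0.120). Sec61a1, the pore subunit, stood at 236, 258, 279, 236 and 252 CPM in WT and 285, 277, 306, 294 and 312 CPM in LAIR1KO. Only WT replicate 3 and LAIR1KO replicate 2 overlapped, by less than 2 CPM, and the log2 fold change was 0.23 ± 0.08 (adjusted p = 0.120). Its partner subunit Sec61b had -0.17 ± 0.14 and the signal peptidase subunit Sec11c -0.11 ± 0.09 (adjusted p = 0.529 and 0.554).

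ER-associated degradation, which returns misfolded proteins to the cytosol for the proteasome, had 0 of 6 members past the threshold (edgeR; adjusted p = 0.141 to 0.981). Herpud1, its most abundant gene per length here and a known target of the response, stood at 214, 223, 215, 236 and 205 CPM in WT and 236, 204, 229, 181 and 179 CPM in LAIR1KO (-0.09 ± 0.10; adjusted p = 0.667). LAIR1KO replicates 2, 4 and 5 lay below every WT library, replicate 1 above every one of them and replicate 3 among them. Derl3, a derlin typical of secretory cells, was rare. It held 9, 11, 8, 9 and 0 counts in WT and 26, 30, 9, 18 and 46 counts in LAIR1KO, and its log2 fold change of 1.63 ± 0.62 did not pass (adjusted p = 0.141). The ubiquitin ligase Syvn1 (HRD1) and its partner Sel1l had 0.03 ± 0.10 and 0.01 ± 0.17, the mannosidase-like Edem1 had -0.14 ± 0.19, and Derl1 had -0.24 ± 0.09 (adjusted p = 0.146). Edem1 and Sel1l spread widely within LAIR1KO: Edem1 lay at 133 to 189 CPM in replicates 1 to 3 and at 229.8 and 300.1 in replicates 4 and 5, and Sel1l at 157 to 193 and at 281 and 295.

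The 6 sensors and transcription factors gave no call (edgeR; lowest adjusted p = 0.175, median log2 fold change -0.20). Xbp1, the factor downstream of IRE1, stood at 432, 454, 584, 567 and 565 CPM in WT and 545, 472, 488, 411 and 414 CPM in LAIR1KO, and the groups overlapped. Its log2 fold change was -0.16 ± 0.11 with a 95% confidence interval of -0.41 to 0.09 (adjusted p = 0.458), and counts per gene do not separate its spliced form. Atf4 stood at 85.1 ± 8.32 and 84.6 ± 6.40 CPM (-0.01 ± 0.10; 95% confidence interval -0.22 to 0.20). Ern1 had 0.00 ± 0.17 and Eif2ak3 -0.32 ± 0.29, and the wide error of the latter came with values from 20.2 to 89.0 CPM over the 10 libraries. Atf6 had -0.24 ± 0.18 (adjusted p = 0.491), and it passed as lower without LAIR1KO replicates 4 and 5 (-0.58, adjusted p = 0.0389), which stood at 182 and 148 CPM against 96.2 to 103 in LAIR1KO replicates 1 to 3.

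Ddit3 (CHOP), the stress factor induced by ATF4, had the smallest p of this role. It stood at 37.4, 36.2, 37.9, 34.4 and 31.9 CPM in WT and 30.7, 32.1, 30.4, 29.2 and 22.5 CPM in LAIR1KO. WT replicate 5 and LAIR1KO replicate 2 were the libraries that overlapped, and the log2 fold change of -0.29 ± 0.12 did not pass (adjusted p = 0.175). On the other strand Mars covers 4.0% of the exon length of Ddit3, with a mean count of 1505 against 439.8, and whether counting used strand is not stated.

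Among targets of the integrated stress response, the branch that runs from eIF2 phosphorylation to ATF4, 1 of 4 tested members fell and none rose. Of all tested genes 1.68% were lower. Trib3, which feeds back on ATF4 and AKT signalling, was rare, with 29 to 66 counts per WT library and 14 to 27 per LAIR1KO library. It stood at 2.43, 3.87, 2.83, 4.55 and 2.63 CPM in WT and 1.21, 1.82, 1.79, 1.09 and 1.59 CPM in LAIR1KO, every LAIR1KO library below every WT library. The log2 fold change was -1.11 ± 0.29 (SE; 95% confidence interval -1.75 to -0.48; adjusted p = 0.0387). The call ended when WT replicate 2, 3 or 4 or LAIR1KO replicate 1, 2, 4 or 5 was left out (7 of 10 fits, adjusted p = 0.0582 to 0.100), without either pair of libraries (0.163 and 0.136) and with no filter (0.106).

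Ppp1r15a (GADD34), which recruits the phosphatase that reverses eIF2 phosphorylation, was the most abundant of these targets per length. Its levels were 40.9, 44.02, 42.6, 33.9 and 42.9 CPM in WT and 27.7, 36.5, 31.7, 27.02 and 31.4 CPM in LAIR1KO, with overlap only between WT replicate 4 and LAIR1KO replicate 2. The log2 fold change was -0.41 ± 0.12 (adjusted p = 0.0643). It passed as lower without either of those libraries (adjusted p = 0.0450 without WT replicate 4 and 0.0476 without LAIR1KO replicate 2), with the correction for GC content and length (0.0387) and with DESeq2 (0.0133). Sesn2, a stress-induced inhibitor of mTORC1, had -0.31 ± 0.18 (adjusted p = 0.345), and Asns, the asparagine synthetase, 0.37 ± 0.25 (adjusted p = 0.424). Chac1, a glutathione-degrading enzyme and late target of CHOP, was too rare to test, with 9 and 4 counts in WT replicates 1 and 2, 4 and 6 in LAIR1KO replicates 4 and 5 and 0 in the other libraries.

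**Figure D4:**
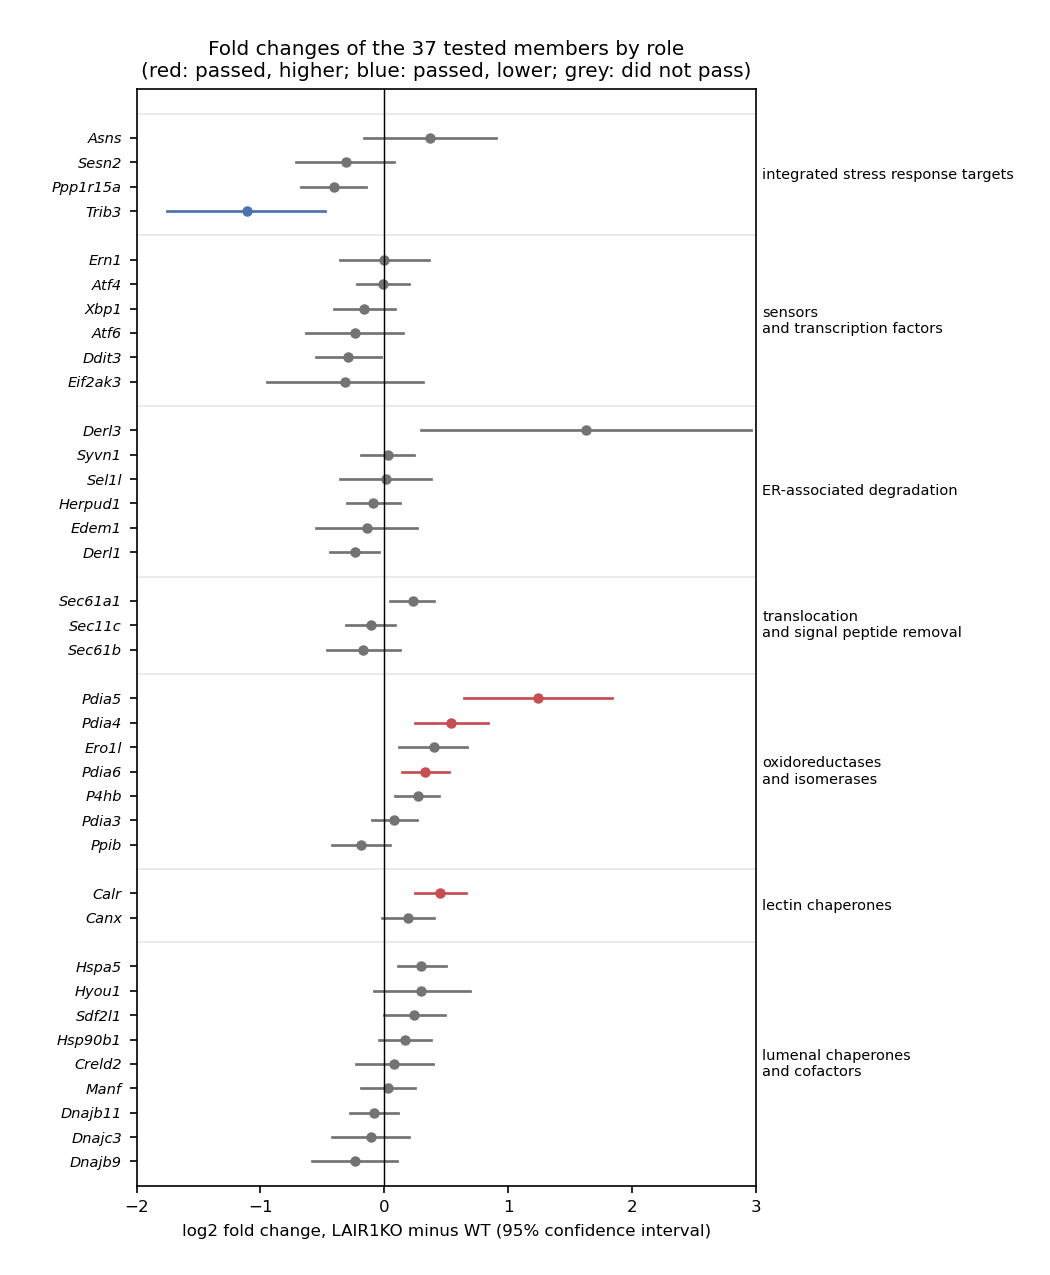
Log2 fold changes (LAIR1KO minus WT) of the 37 tested members with 95% confidence intervals from edgeR, grouped by role. The 4 members that passed as higher are Calr, Pdia4, Pdia5 and Pdia6, and the 1 that passed as lower is Trib3, while the 6 sensors and transcription factors have point estimates from -0.32 to 0.00.

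Separation of the groups was also counted without a model. In 5 members every LAIR1KO library exceeded every WT library, namely Hspa5, Calr, Pdia4, Pdia6 and P4hb, and in 1, Trib3, every LAIR1KO library was lower. These are 13.5% and 2.7% of the tested members, against 5.61% and 2.06% of all tested genes. LAIR1KO replicate 5 was the highest of the 10 libraries for 16 of the 37 members and the lowest for 5. LAIR1KO replicate 4 was the highest for 4 and the lowest for 5.

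Lists of other genes of the pathway held 127 genes, of which 123 were tested, with 7 higher, 1 lower and a median log2 fold change of 0.04. Calls were thus about as frequent as among all tested genes, of which 5.11% were higher and 1.68% lower. Among the other translocon and signal peptidase genes 1 of 15 rose, Sec61a2, a second form of the pore subunit (4.89 ± 0.714 to 8.28 ± 1.65 CPM, SD, n = 5; 0.76 ± 0.20, adjusted p = 0.0377). Of 12 oligosaccharyltransferase subunits, which attach N-glycans, Rpn1 rose (326 ± 28.3 to 414 ± 35.9 CPM; 0.34 ± 0.09, adjusted p = 0.0401). Of the 10 fits that leave out a single library, Sec61a2 lost its call in 8 and Rpn1 in 9. Sec61a2 passed only without WT replicate 5 or LAIR1KO replicate 3 (adjusted p = 0.0587 to 0.105 in the others), and Rpn1 only without WT replicate 4 (0.0543 to 0.108 in the others). No gene passed among 9 of glycoprotein folding, 13 other disulfide enzymes, 15 other degradation genes, 12 of the COPII coat and 17 of stress sensing and eIF2 control (edgeR). In glycoprotein folding the smallest p-values belonged to the glucosidase II subunit Ganab (0.31 ± 0.09, adjusted p = 0.0639) and the ER lectin Os9 (-0.21 ± 0.08, adjusted p = 0.142). Among disulfide enzymes they belonged to the reductase Dnajc10 (0.31 ± 0.10, adjusted p = 0.0860) and the peroxiredoxin Prdx4 (0.37 ± 0.17, adjusted p = 0.222). In degradation they belonged to Vcp, the ATPase that extracts proteins from the ER (0.21 ± 0.09, adjusted p = 0.201), and the mannosidase Man1b1 (0.24 ± 0.12, adjusted p = 0.260). For the COPII coat they were those of the coat subunit Sec31a (0.26 ± 0.10, adjusted p = 0.140) and the GTPase Sar1b (-0.23 ± 0.12, adjusted p = 0.292). For eIF2 control they were those of Eif2b1, a subunit of the exchange factor (0.37 ± 0.11, adjusted p = 0.0569), and of the eIF2 alpha subunit Eif2s1 (0.26 ± 0.09, adjusted p = 0.111).

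Among 22 tested other targets of ATF4, 4 rose and 1 fell, where 5.11% of all tested genes were higher and 1.68% lower. Those with the smallest p-values were the mitochondrial serine hydroxymethyltransferase Shmt2 (32.2 ± 5.87 to 80.2 ± 23.7 CPM, SD, n = 5; 1.32 ± 0.20, adjusted p = 0.00201) and the serine synthesis enzymes Psat1 (15.1 ± 3.87 to 34.3 ± 7.07 CPM; 1.18 ± 0.19, adjusted p = 0.00282) and Phgdh (1.90 ± 0.606 to 7.12 ± 2.79 CPM; 1.90 ± 0.32, adjusted p = 0.00393). The fourth was the proline synthesis enzyme Pycr1 (1.69 ± 0.37, adjusted p = 0.0149), and the gene that fell was the stress factor Atf3 (60.5 ± 8.15 to 40.2 ± 6.63 CPM; -0.59 ± 0.14, adjusted p = 0.0209), both named after their values were seen. The other 17 did not pass. Among them were the mitochondrial folate enzyme Mthfd2 (-0.04, adjusted p = 0.898) and the serine phosphatase Psph (0.27, adjusted p = 0.324), also named outside the rule used for these lists. Of 8 mitochondrial chaperones and proteases all had a fold change above 0, with a median of 0.36, and 1 passed, the HSP90-type chaperone Trap1 (67.8 ± 6.18 to 107 ± 14.02 CPM; 0.66 ± 0.11, adjusted p = 0.00345). Shmt2, Psat1, Phgdh and Trap1 were highest in LAIR1KO replicates 4 and 5, the libraries with the highest progenitor and mitosis sums, and the part of those cells was not tested.

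**Figure D5:**
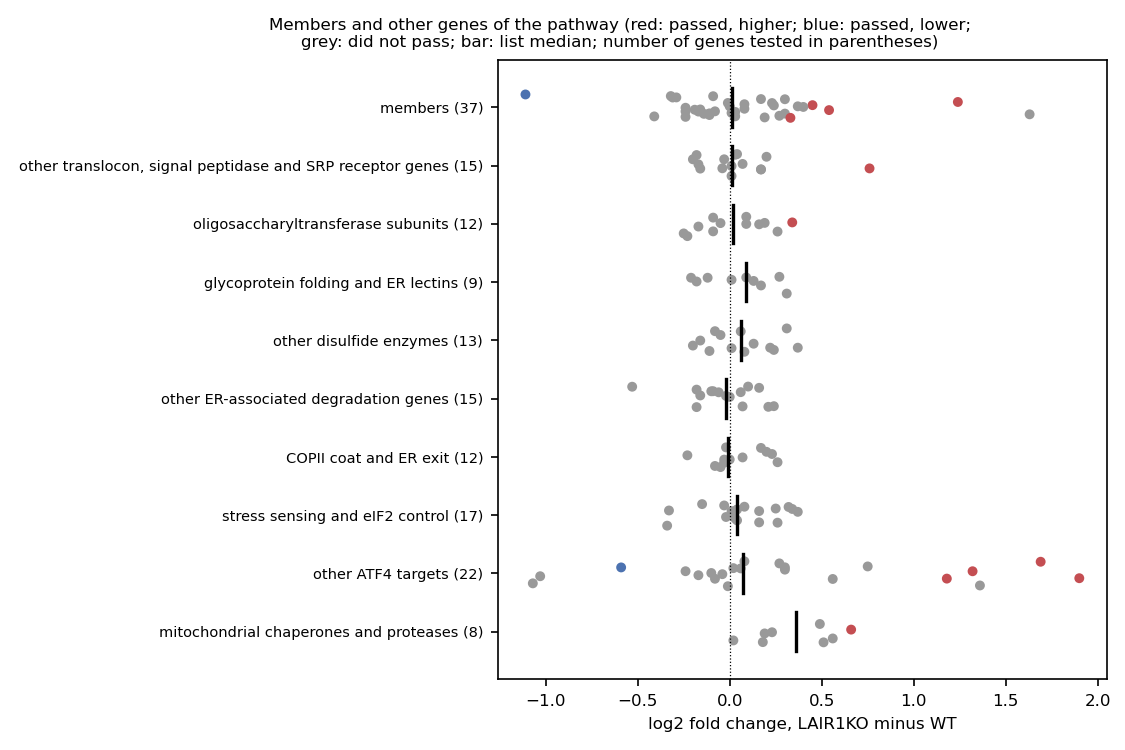
Log2 fold changes (LAIR1KO minus WT) of the tested members and of 9 other lists of the pathway, 1 point a gene, with the list median as a bar. Medians lie near 0 except for the mitochondrial chaperones and proteases at 0.36, and the ATF4 targets spread the farthest, from -1.07 to 1.90.

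Plasma cells, the marrow cells richest in ER chaperones, were followed by their own markers. Of 8 tested plasma cell markers 1 rose and none fell. The fold change was below 0 for 6 of them and above 0 for 2, with a median log2 fold change of -0.42. The summed level of all 12 on the list was 84.1 to 206 CPM in WT and 77.1 to 177 in LAIR1KO. The receptor Tnfrsf17 (BCMA), a defining marker, had 0 counts in every LAIR1KO library and in 4 of 5 WT libraries. Jchain and Sdc1, also on the list, were present in every library, at 113 to 568 and 54 to 126 counts. Tnfrsf17, Jchain and Sdc1 were named outside the rule used for the other markers. Igha, the most abundant of the list, stood at 60.1 and 45.0 CPM (-0.42 ± 0.41, adjusted p = 0.597). The marker that rose was Fkbp11, itself a prolyl isomerase of the secretory pathway, at 0.418, 1.77, 0.298, 0.828 and 0.930 CPM in WT and 3.20, 3.23, 3.71, 3.27 and 4.64 CPM in LAIR1KO (2.08 ± 0.41, adjusted p = 0.00937). Every LAIR1KO library was above every WT library, and the call was lost without LAIR1KO replicates 4 and 5 (adjusted p = 0.0649) or WT replicates 1 and 4 (0.0716). The plasma cell sums of the genotypes overlapped.

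Markers of further cell types moved in both directions, and their part in the members' values was not tested. B cell markers had 0 of 8 past the threshold (edgeR; sums 91.8 to 123 CPM in WT and 74.01 to 132 in LAIR1KO), neutrophil markers 0 of 8 (777 to 1840.2 and 1073 to 1425), and dendritic cell markers 3 of 7 lower (309 to 451 and 200.1 to 268). Erythroid markers had 4 of 7 lower (79.0 to 1282 and 36.2 to 115), with WT replicate 2 at 1282 and the other WT libraries at 79.0 to 321. Without WT replicate 2 the beta-globin gene Hbb-bs went from -2.56 (adjusted p = 0.0400) to -1.39 (adjusted p = 0.0937), and its call was lost in 7 of the 10 single-library fits. Platelet markers had 1 of 3 lower (6.99 to 148 and 3.25 to 11.5), with WT replicate 5 at 148 and the other WT libraries at 6.99 to 27.9. Markers of eosinophils, basophils and mast cells had 1 of 5 higher (1.08 to 69.5 and 26.9 to 130.0). It was Prg2, at 0.542 to 3.03 CPM in WT. In LAIR1KO it stood at 34.5 and 85.3 CPM in replicates 1 and 4 and at 2.78 to 13.4 in replicates 2, 3 and 5. Its call was lost in 3 alternatives, and in 0 of the single-library fits. T and NK cell markers were near 0, at up to 1.17 CPM in sum, and none was abundant enough to test.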

How the data were processed

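The authors deposited 1 table of raw read counts per Ensembl gene, with 5 WT and 5 LAIR1KO libraries. GSNAP and the build GRCm38.p5 are named per the submitters' processing notes. The counting tool, annotation release, filters and strand setting were not given in the sources used. Columns were matched to libraries by the identifier in the sample titles, with 0 columns left over. Symbols, coordinates and exon lengths came from GENCODE M21 (GRCm38), which matched 52489 of 52636 identifiers, and promoter sequences from RefSeq (GRCm38.p6).

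Testing used edgeR 4.0.16 under R 4.3.3, with filterByExpr (minimum count 10, minimum total 15), TMM scaling, and the quasi-likelihood test of LAIR1KO against WT with no covariate, two-sided, adjusted by Benjamini-Hochberg over 13469 genes. The SE is the fold change over the root of F. The script was tested on simulated data. It recovered 28.8% of 1.5-fold, 64.4% of 2-fold and 91.2% of 4-fold changes, so a gene that did not pass may still differ. The chi-square of replicate pairs over genes, divided by its degrees of freedom, was 15.8 to 80.8, so no library repeated another. The labels do not say that libraries came from separate animals, so p-values measure the spread between libraries.

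The members and lists were chosen with earlier results of these data known. Named genes are every member, with values per library for those past the threshold and, in each role, for the most abundant per length and the one with the smallest p. From each other list they are up to 3 past the threshold or the smallest p-values. From marker lists they are the most abundant gene and the smallest p, printed here for plasma cells and, of the others, for Hbb-bs and Prg2 alone. Tnfrsf17, Jchain, Sdc1, Pycr1, Atf3, Mthfd2 and Psph were named outside this rule. Alternatives were other scalings, filters, tests (DESeq2 1.42.0, limma 3.58.1 voom), a replicate block, removal of GC and length trends, and libraries left out.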

Additional observations from a re-analysis of the deposited data

How the results depend on the processing

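Of the 37 tested members, 25 kept their side of the threshold under all 21 alternatives, and 0 values reversed among called members. The 5 called members lost their call in at least 1 alternative each, and 7 of the 32 others gained one in at least 1. Scaling by library totals gave 1379 changed genes, 9 members higher and a member median of 0.15, beside a median of all genes of 0.13. DESeq2 gave 1516 genes, 7 members higher and 2 lower. The correction for GC content and length gave 2 members higher and 2 lower, and using no filter gave 0 lower (edgeR, 37 members and Chac1). Leaving out 1 library at a time gave 535 to 1170 genes, 1 to 3 members higher, 0 to 1 lower and member medians of -0.03 to 0.05. Without LAIR1KO replicates 4 and 5 there were 376 genes and 1 member higher, and without WT replicates 1 and 4 there were 338 genes, 0 members higher and 0 lower, in fits with fewer samples. Lair1 stayed lower throughout (-11.49 to -9.94). Same-numbered libraries had correlations of deviations from -0.078 to 0.047, so no pairing by the replicate numbers of the titles was visible. Whether such libraries share a litter or day is not stated, and these correlations cannot decide it. With the replicate number as a block there were 600 changed genes, 2 members higher and 0 lower, Pdia4, Pdia6 and Trib3 being lost (adjusted p = 0.0765, 0.0879 and 0.106). Chac1 held too few counts to test.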
